A study of Mus musculus with 18 samples.

Results

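Cybb, Cyba, Ncf1, Ncf4, Rac2, Nox4 and Hmox1, which encode parts of the NADPH oxidases and the inducible heme oxygenase, were followed in the mouse carotid artery after wire injury. The 7 genes were chosen by symbol, with earlier results of these data known, and all 7 were found among the 35655 genes of the count table. The study profiled tissue that was cut by laser from frozen carotid sections, with up to 70 sections per collection, and sequenced the 3′ ends of its transcripts (MACE-seq). All mice were wild-type C57/BL6, and surgery was performed on males at 11 weeks of age. The 18 libraries came from day 0, labelled pre-injury (n = 4), and from day 7 (n = 4), day 14 (n = 3), day 21 (n = 4) and day 28 (n = 3) after injury of the artery with a wire. No treatment other than the injury is named in the labels. The cut area spanned the outer elastic lamina and the neointima. The wall of the uninjured vessel at day 0 was thus compared with tissue that could also hold neointima and infiltrated cells. A legend of the study calls the samples pooled and does not say what was pooled. Whether a library came from a single mouse is not stated, and p-values measure the spread between these libraries, some of which may be technical.

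NADPH oxidases transfer electrons from NADPH across a membrane to oxygen and so make superoxide or hydrogen peroxide. The phagocyte oxidase consists of the catalytic subunit gp91phox (NOX2, encoded by Cybb) and its membrane partner p22phox (Cyba), and it is inactive until proteins of the cytosol, among them p47phox (Ncf1), p40phox (Ncf4) and the GTPase Rac2, join it. NOX4 is a related catalytic subunit of the vessel wall that also needs p22phox but works without the cytosolic subunits and is largely controlled by its amount. Heme oxygenase 1 (Hmox1) is the stress-inducible enzyme that splits heme into biliverdin, carbon monoxide and iron, and it is abundant in macrophages that take up red cells.

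On the GRCm39 assembly with GENCODE M39 annotation, Cybb spans chrX:9301491-9354010 (minus strand), Cyba chr8:123150422-123159706 (minus strand) and Ncf1 chr5:134248907-134258479 (minus strand). Ncf4 spans chr15:78128982-78146784 (plus strand) and Rac2 chr15:78443367-78457429 (minus strand). Nox4 spans chr7:86895304-87047918 (plus strand) and Hmox1 chr8:75820241-75827217 (plus strand). Exons of 4 of the genes overlap exons of a gene on the other strand, and the use of strand in the counting is not given in the sources used here. These partners are Xk for Cybb, Il17c for Cyba, Gtf2ird2 for Ncf1 and Gm63166 for Rac2. Il17c held 0 counts in all 18 libraries and Gtf2ird2 held 33 in total, while Xk held 155 counts over the day 0 libraries and 8 over those of day 7. Gm63166 was not analysed here.

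The promoters of the 2 catalytic subunits are shown because their transcripts moved in opposite directions at day 7. RefSeq promoter sequences (GRCm38.p6) matched 4 of the 7 genes (Cybb, Cyba, Ncf1 and Nox4), and Ncf4, Rac2 and Hmox1 were not matched. The lines give the 250 bases before the start of the gene on its own strand, 5′ to 3′, with GGAA, the core that ETS factors such as PU.1 bind, in capitals on either strand (TTCC where it lies on the other strand).
Cybb: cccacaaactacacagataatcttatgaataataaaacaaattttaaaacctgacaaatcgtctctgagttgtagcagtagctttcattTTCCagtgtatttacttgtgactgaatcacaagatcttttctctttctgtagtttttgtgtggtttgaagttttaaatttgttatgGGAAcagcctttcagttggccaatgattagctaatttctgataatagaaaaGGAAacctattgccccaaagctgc
Nox4: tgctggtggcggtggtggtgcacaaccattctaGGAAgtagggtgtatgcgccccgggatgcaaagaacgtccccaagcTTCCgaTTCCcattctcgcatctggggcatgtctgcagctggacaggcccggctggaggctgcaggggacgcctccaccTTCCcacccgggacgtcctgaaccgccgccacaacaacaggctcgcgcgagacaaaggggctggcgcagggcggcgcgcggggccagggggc
GGAA occurred 3 times in the Cybb promoter, 4 times in that of Nox4, 2 times in that of Cyba and once in that of Ncf1, and 93.4% of 32851 promoters of the same length held it. The longer letters GAGGAA, searched on both strands and containing GGAA, were in 23.3% of all promoters and in none of these 4. The antioxidant response core TGACNNNGC was in 10.2% of all promoters and likewise in none of these 4. GC content was 34% for Cybb, 60% for Cyba, 54.4% for Ncf1 and 67.2% for Nox4, beside a median of 52.4% over all promoters.

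Libraries held 440675 to 878310 estimated counts (median 659166), so that 3 counts in a library stood for 4.12 to 5.39 CPM on average over a day's libraries. CPM are counts scaled to the library size, here summed over the genes tested and corrected by TMM. The captured tissue carried the markers of its label, with summed levels of 7 smooth muscle markers of 31850 to 37207 CPM at day 0, 1518 to 7015 at day 7 and 20068 to 28240 at day 28. The summed level of 10 macrophage markers was 102.8 to 521 CPM at day 0, 4081 to 6187 at day 7, 1067 to 2269 at day 14, 1631 to 3199 at day 21 and 738 to 1067 at day 28. All 10 macrophage markers rose at days 7, 14 and 21. All 7 smooth muscle markers fell at day 7. Summed fibroblast markers were at 2990 to 5674 CPM at day 0 and 6449 to 9133 CPM at day 7. Col1a1 alone made most of these sums, with a mean of 2550 CPM at day 0 and 6981 CPM at day 7. The mean sums were 3820 and 8087 CPM. Summed endothelial markers were at 607 to 1101 CPM at day 0 and 636 to 2115 CPM at day 7. Of 6 fibroblast markers 2 rose and 2 fell at day 7, and of 6 endothelial markers 3 rose and 1 fell. Of 10 neutrophil markers, 4 passed the filter on low counts and rose at day 7, while Mpo and Elane were at 0 in every library. None of 7 lymphocyte markers passed that filter. In such bulk tissue, fewer cells of a type and less RNA per cell cannot be told apart.

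At day 7 the 5 genes of the phagocyte oxidase and Hmox1 rose and Nox4 fell. Of the 7 genes, 7 were called against day 0 (edgeR quasi-likelihood test, Benjamini-Hochberg adjusted p under 0.05 over 10312 genes), 6 higher and 1 lower, and the libraries of both days did not overlap for 6 of them. In this comparison 19.8% of all genes tested were called. Since the 7 genes were chosen with earlier results of these data known, their counts of calls beside such shares are descriptions, here and below. The share of all genes whose libraries did not overlap was not counted in any comparison. Counts without overlap therefore describe these 7 genes only. The median log2 fold change over all genes tested was 0.07.

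Cybb, the catalytic subunit of the phagocyte oxidase, was measured at 29.8, 4.78, 0 and 24.9 CPM in the 4 day 0 libraries and at 83.7, 154.5, 143.5 and 127.5 CPM at day 7. Every day 7 library lay above every day 0 library. The mean rose from 14.9 ± 14.7 CPM (SD, n = 4) to 127 ± 31.1 CPM (SD, n = 4), a log2 fold change of 3.09 (SE 0.53, edgeR adjusted p = 0.00015). Cybb was measured at 46.4, 111.2 and 70.5 CPM at day 14, and at 82.8, 86.8, 97.0 and 97.7 CPM at day 21. The 4 libraries of day 21 lay close together, and no library of either day fell to the day 0 levels. The log2 fold change against day 0 was 2.34 at day 14 (SE 0.56, edgeR adjusted p = 0.00971) and 2.61 at day 21 (SE 0.53, edgeR adjusted p = 0.00269). At day 28 Cybb was at 34.5, 57.9 and 27.2 CPM, of which the lowest lay under the highest day 0 library. The difference from day 0 was then 1.42 on the log2 scale (SE 0.57, edgeR adjusted p = 0.231).

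Cyba, which encodes the p22phox subunit that both NOX2 and NOX4 need, was measured at 138.5, 129.1, 120.7 and 166.7 CPM at day 0. It reached 480.8, 521.1, 350.8 and 498.9 CPM at day 7. No libraries of both days overlapped, and the log2 fold change was 1.74 (SE 0.25, edgeR adjusted p = 1.77e-05). Levels of 198.4, 374.1 and 296.2 CPM followed at day 14, with a log2 fold change of 1.06 against day 0 (SE 0.26, edgeR adjusted p = 0.0138). At day 21 the libraries held 273.2, 262.4, 174.3 and 179.2 CPM, which lay above every day 0 library but missed the threshold (log2 fold change 0.68, edgeR adjusted p = 0.0876). Day 28 gave 159.4, 178.6 and 116.6 CPM, a range that spanned all day 0 libraries. Cyba was the one subunit of the phagocyte oxidase with counts in all 4 day 0 libraries.

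The cytosolic subunits were near or below detection before injury. Ncf1, the organizer p47phox, was at 10.4, 0, 0 and 3.94 CPM at day 0 and at 73.0, 55.7, 25.9 and 40.4 CPM at day 7. The groups did not overlap, and the log2 fold change was 3.73 (SE 0.82, edgeR adjusted p = 0.00175). It was at 19.2, 51.2 and 45.7 CPM at day 14, still above every day 0 library (log2 fold change 3.40, SE 0.85, edgeR adjusted p = 0.0143). At day 21 Ncf1 was at 11.8, 22.2, 36.2 and 9.31 CPM, which overlapped day 0 (log2 fold change 2.45, edgeR adjusted p = 0.0653). At day 28 it was at 7.18, 4.96 and 0 CPM, within the range of day 0.

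Ncf4, which encodes p40phox, had 0 counts in all 4 day 0 libraries, where 3 counts would stand for 4.12 CPM on average. It was at 74.8, 66.5, 55.8 and 27.4 CPM at day 7, at least 13.6-fold higher than 3 counts per day 0 library (edgeR adjusted p = 3.78e-05). It was at 3.20, 38.8 and 23.5 CPM at day 14 and at 27.2, 24.2, 13.2 and 9.31 CPM at day 21. Every library of these days held Ncf4, although day 14 replicate 1 stayed under 3 counts. The means of these days were at least 5.31-fold (edgeR adjusted p = 0.00181) and at least 4.49-fold (edgeR adjusted p = 0.00189) higher than day 0. At day 28 Ncf4 was at 11.5, 6.62 and 0 CPM (edgeR adjusted p = 0.0853).

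Rac2, the GTPase of blood cells that switches the complex on, also had 0 counts in all 4 day 0 libraries. Its levels were 49.9, 75.5, 41.9 and 9.69 CPM at day 7, at least 10.7-fold higher (edgeR adjusted p = 0.000198). It was at 17.6, 37.1 and 31.3 CPM at day 14, at least 6.96-fold higher (edgeR adjusted p = 0.00229), and at 34.3, 2.02, 9.87 and 20.9 CPM at day 21, at least 4.08-fold higher (edgeR adjusted p = 0.00438). Its libraries were spread more widely than those of Cybb at day 21, with replicate 2 close to 0. At day 28 only replicate 1 held Rac2, with 7.18 CPM, and the other two libraries had 0 counts.

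Nox4, the oxidase subunit of the vessel wall, went the other way. It was at 41.7, 179.3, 79.0 and 112.9 CPM at day 0 and at 28.5, 7.19, 7.97 and 50.0 CPM at day 7. Day 7 replicate 4 lay above day 0 replicate 1, and the remaining day 7 libraries lay below every day 0 library. The mean fell from 103 ± 58.5 CPM (SD, n = 4) to 23.4 ± 20.3 CPM (SD, n = 4), a log2 fold change of -2.11 (SE 0.50, edgeR adjusted p = 0.00351). Nox4 was at 142.4, 102.4 and 33.9 CPM at day 14, at 95.8, 62.6, 72.4 and 83.8 CPM at day 21, and at 133.6, 153.8 and 111.9 CPM at day 28. These levels overlapped those of day 0 at each of these days. Against day 0 the log2 difference was -0.17 at day 14 (edgeR adjusted p = 0.931), -0.39 at day 21 (edgeR adjusted p = 0.688) and 0.36 at day 28 (edgeR adjusted p = 0.779).

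Hmox1 was at 17.9, 2.39, 4.47 and 1.31 CPM at day 0 and at 539.5, 903.9, 572.1 and 1661 CPM at day 7. Each day 7 library exceeded every library of any other day. The mean rose from 6.51 ± 7.68 CPM (SD, n = 4) to 919 ± 521 CPM (SD, n = 4), a log2 fold change of 7.16 (SE 0.93, edgeR adjusted p = 4.6e-06). At day 14 Hmox1 was at 17.6, 86.5 and 17.0 CPM, and at day 21 at 7.10, 38.3, 80.6 and 2.33 CPM. Levels of both days overlapped those of day 0 and did not pass the test (log2 fold change 2.62, edgeR adjusted p = 0.129, and 2.33, edgeR adjusted p = 0.137). At day 28 it was at 1.44, 0 and 43.1 CPM, so that replicate 3 alone was above the day 0 libraries (log2 fold change 1.21, edgeR adjusted p = 0.652).

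**Figure D1:**
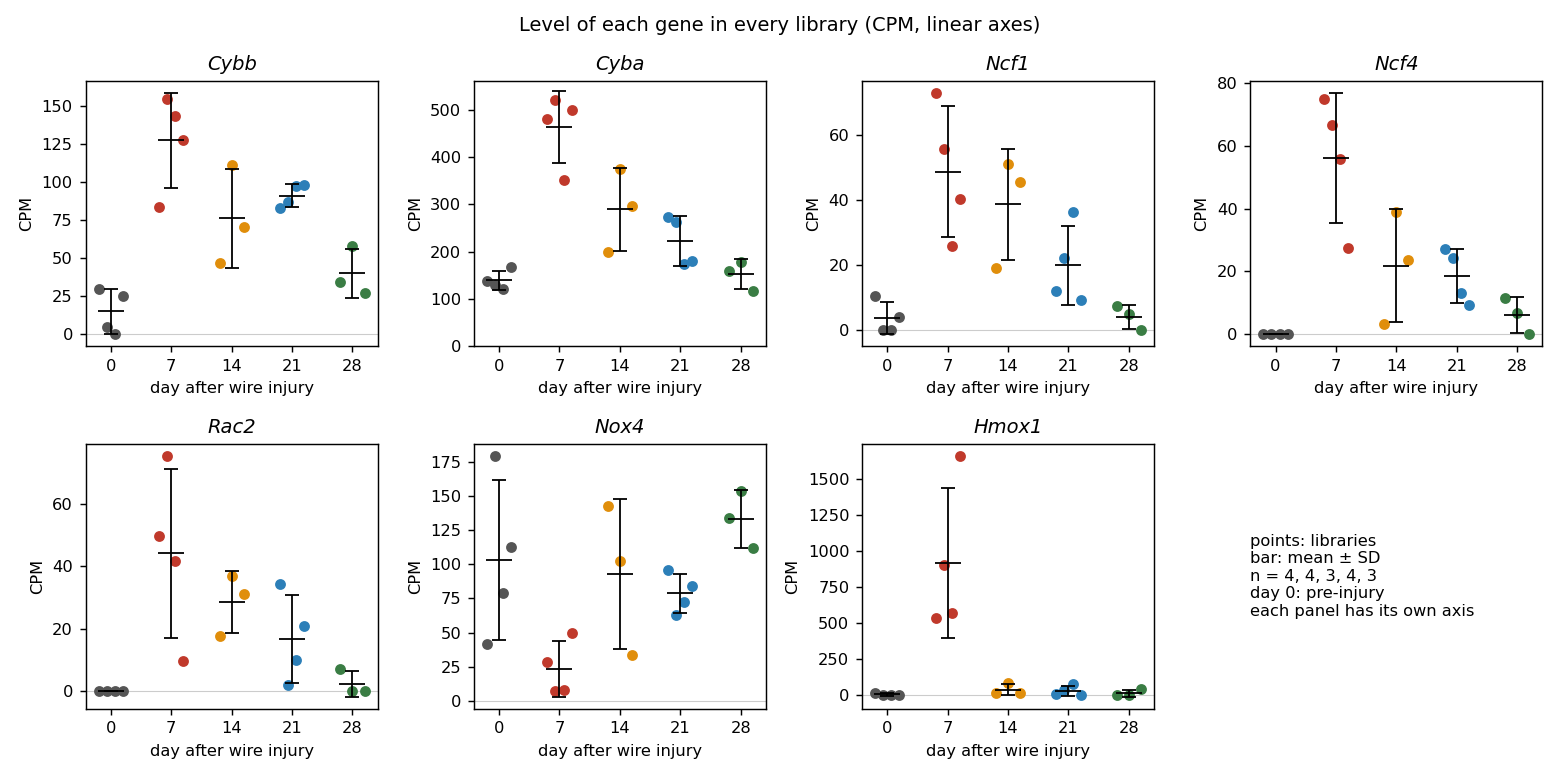
Level of each of the 7 genes (y axis, CPM, linear, own scale per gene) by day after wire injury (x axis), with points for libraries and bars for mean ± SD (n = 4, 4, 3, 4 and 3). Hmox1 is high in the 4 day 7 libraries (539.5 to 1661 CPM) and at most 86.5 CPM elsewhere, whereas Nox4 is lowest at day 7 and Cybb remains above day 0 through day 21.

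Against day 0, 5 of the 7 genes were called at day 14, all higher and without overlap, beside 6.22% of all genes tested called. These were the 5 genes of the phagocyte oxidase. At day 21, 3 of the 7 genes were called, Cybb, Ncf4 and Rac2, all higher, beside 8.84% of all genes called, and 4 did not overlap. At day 28, edgeR called 0 of the 7 genes and all overlapped day 0, beside 1.34% of all genes called. At an unadjusted p under 0.05, 3 of them passed at day 28. DESeq2 called 1 (Ncf4, adjusted p = 0.0222), beside 366 of 10312 genes. The share of all genes passing the unadjusted threshold was not counted. Some calls of day 14 were lost on leaving out 1 library. Calls over all genes tested fell too, from 641 of 10312 to 233 of 10898 without day 14 replicate 2. They numbered 429 of 10846 without day 14 replicate 3. Without day 14 replicate 2 the calls of Cybb (adjusted p = 0.0966), Cyba (0.188) and Ncf1 (0.0856) were lost, and without day 14 replicate 3 those of Cyba (0.057) and Ncf1 (0.0549) were lost.

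**Figure D2:**
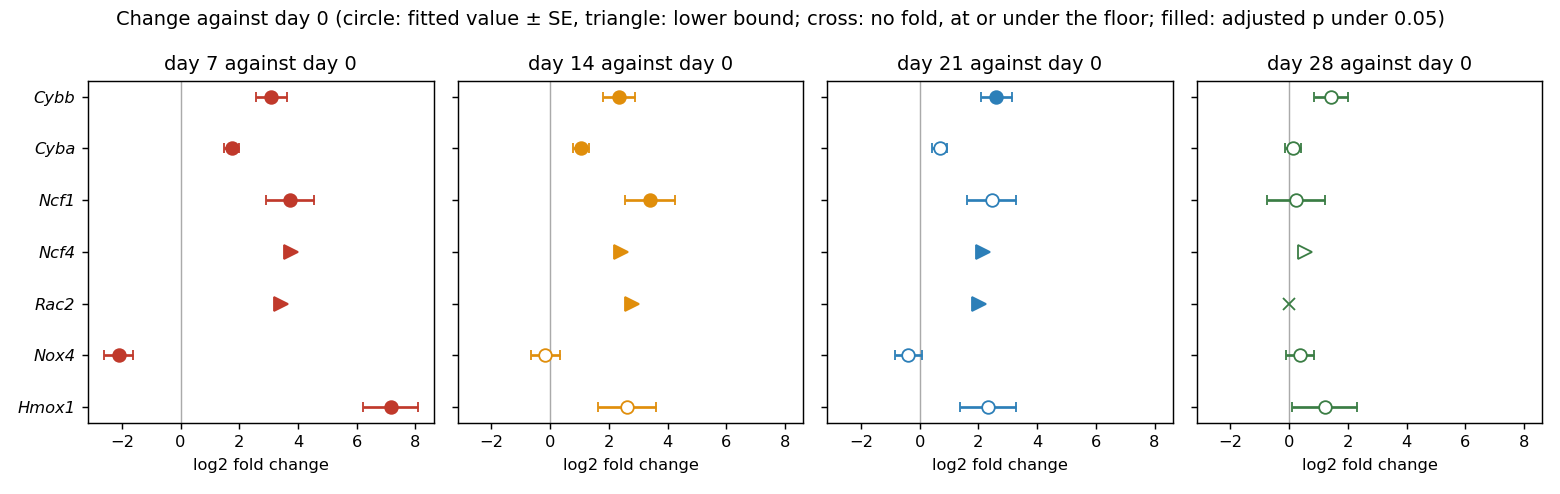
Log2 fold change against day 0 (x axis, same scale in each panel) for the 7 genes (rows) at days 7, 14, 21 and 28. Circles give the fitted value ± SE, triangles lower bounds for genes at 0 counts at day 0, and filled symbols an adjusted p under 0.05. The cross marks a gene at 0 counts at day 0 whose later mean CPM did not exceed that of 3 counts. Filled symbols number 7, 5, 3 and 0 from left to right.

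The later days were also compared with day 7. At day 14, 1 of the 7 genes was called, Hmox1, beside 1.66% of all genes called. Hmox1 was also the one gene whose libraries did not overlap. Its level fell by 4.54 on the log2 scale (SE 0.88, edgeR adjusted p = 0.0085). Leaving out replicate 1 or 3 of day 14 ended this call, with adjusted p of 0.0758 and 0.0519. Cybb (log2 difference -0.75, SE 0.51), Ncf1 (-0.33, SE 0.74) and Rac2 (-0.62, SE 0.84) gave smaller differences with adjusted p of 0.729, 0.96 and 0.915, and whether Hmox1 differed from them in its change was not tested. Nox4 was higher by 1.94 (SE 0.53) with an adjusted p of 0.0623, and an adjusted p of 0.0426 with a replicate block.

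At day 21, 3 of the 7 genes were called against day 7, beside 7.26% of all genes called, and 4 did not overlap. Hmox1 fell by 4.83 on the log2 scale (SE 0.79, edgeR adjusted p = 0.000449) and Cyba fell by 1.06 (SE 0.25, edgeR adjusted p = 0.00761), whereas Nox4 rose by 1.72 (SE 0.51, edgeR adjusted p = 0.0387). The Nox4 call was lost in 8 of 28 alternative settings, with an adjusted p of up to 0.123 (without day 7 replicate 2). The day 21 levels of Cybb were within 0.48 (log2, SE 0.47) of those of day 7 on average (edgeR adjusted p = 0.64).

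At day 28 all 7 genes were called against day 7, beside 14.4% of all genes called, and all 7 did not overlap with it. Cybb fell by 1.67 (SE 0.54, adjusted p = 0.0379), Cyba fell by 1.61 (SE 0.28, adjusted p = 0.00036), Ncf1 fell by 3.51 (SE 0.91, adjusted p = 0.0109) and Ncf4 fell by 3.16 (SE 0.87, adjusted p = 0.0171) on the log2 scale by edgeR. Rac2 fell by 4.03 (SE 1.07, adjusted p = 0.0138) and Hmox1 fell by 5.95 (SE 0.97, adjusted p = 0.000229), while Nox4 rose by 2.47 (SE 0.53, adjusted p = 0.00258) in the same edgeR fit. The Cybb call was lost in 11 of 28 alternative settings, among them the replicate block (adjusted p = 0.0663) and the removal of day 28 replicate 3 (adjusted p = 0.132). Without day 28 replicate 3, 4 of the 7 genes were called. Between days 21 and 28, edgeR called 0 of the 7 genes, beside 0.679% of all genes called, and DESeq2 also called 0. An unadjusted p under 0.05 was passed by 3, and 3 did not overlap. The shares of all genes by these last measures were not counted. Over all days at once 7 of the 7 genes were called, beside 18% of all genes, with adjusted p from 9.88e-07 (Hmox1) to 0.0144 (Nox4). Leaving out replicate 2 or 3 of day 7 ended the Nox4 call over all days, with adjusted p of 0.0536 and 0.0509.

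Cell type markers moved with these genes, and their part in the results was not tested. Cybb and Hmox1 are not among the macrophage markers, so their levels are given as a ratio to the summed marker level, in percent. For Cybb this ratio was 0% to 9.005% at day 0 and 2.05% to 3.19% at day 7. It was 3.13% to 4.90% at day 14, 2.71% to 5.99% at day 21 and 2.54% to 7.42% at day 28. The median of this ratio was lower at day 7 (2.48%) than at day 0 (5.18%), day 14 (4.35%), day 21 (3.93%) and day 28 (4.67%). For Hmox1 the ratio to the same sum was 12.7% to 32.0% at day 7, with no overlap with any other day. It was 0.474% to 3.43% at day 0 and 0.752% to 3.81% at day 14. At day 21 it was 0.143% to 3.27%, and at day 28 it was 0% to 4.04%. For each Cybb count there were 0.053 to 0.6 Hmox1 counts in the 3 day 0 libraries with Cybb counts, 3.99 to 13.0 at day 7, 0.24 to 0.78 at day 14, 0.024 to 0.83 at day 21 and up to 1.59 at day 28.

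Markers of red cells, the main source of heme in blood, summed to 40.2 to 369 CPM at day 0 and 164 to 2347 CPM at day 7, and 4 of 5 rose at day 7. Day 7 replicate 1 held 164 CPM of these markers and 539.5 CPM of Hmox1, while replicates 2, 3 and 4 held 1939, 1812 and 2347 CPM of the markers. Replicate 4 had the highest level of both. The part of red cells in the Hmox1 level was not tested.

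Smooth muscle markers and Nox4 were both low at day 7. Day 7 replicates 2 and 3 had summed smooth muscle levels of 1518 and 1856 CPM and Nox4 levels of 7.19 and 7.97 CPM, and replicates 1 and 4 had 3430 and 7015 CPM and Nox4 levels of 28.5 and 50.0 CPM. At day 0 the extremes went the opposite way. There replicate 1 had the highest smooth muscle level (37207 CPM) with the lowest Nox4 level (41.7 CPM). Day 0 replicate 2 had the lowest smooth muscle level (31850 CPM) with the highest Nox4 level (179.3 CPM). Replicate 4 of day 0 was above replicate 3 in both smooth muscle level (35856 and 35511 CPM) and Nox4 (112.9 and 79.0 CPM). Among the day 14 libraries, replicate 1 had the highest smooth muscle level (23089 CPM), the highest Nox4 level and the lowest levels of Cybb, Cyba, Ncf1, Ncf4 and Rac2. Replicate 2 had the lowest smooth muscle level of that day (7341 CPM) with 102.4 CPM of Nox4, above the 33.9 CPM of replicate 3 (8360 CPM). The summed macrophage level of replicate 1 was 1067 CPM, against 2269 and 2255 CPM in replicates 2 and 3. After the mean of each day was removed, the log2 CPM of Nox4 had a Pearson correlation over the 18 libraries of 0.72 with Myh11, a smooth muscle myosin, 0.58 with Acta2, and -0.54, -0.33 and -0.47 with the macrophage genes Lyz2, Cd68 and Csf1r. With these 3 macrophage genes the same measure was 0.62, 0.63 and 0.62 for Cybb, 0.63, 0.76 and 0.52 for Ncf1, and 0.28, 0.37 and 0.48 for Cyba. It was 0.12, 0.26 and 0.41 for Ncf4, -0.34, -0.20 and 0.30 for Rac2, and 0.57, 0.34 and 0.25 for Hmox1. Hmox1 with the hemoglobin gene Hbb-bs gave 0.06. These are descriptions over libraries that share their depth and tissue makeup.

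**Figure D3:**
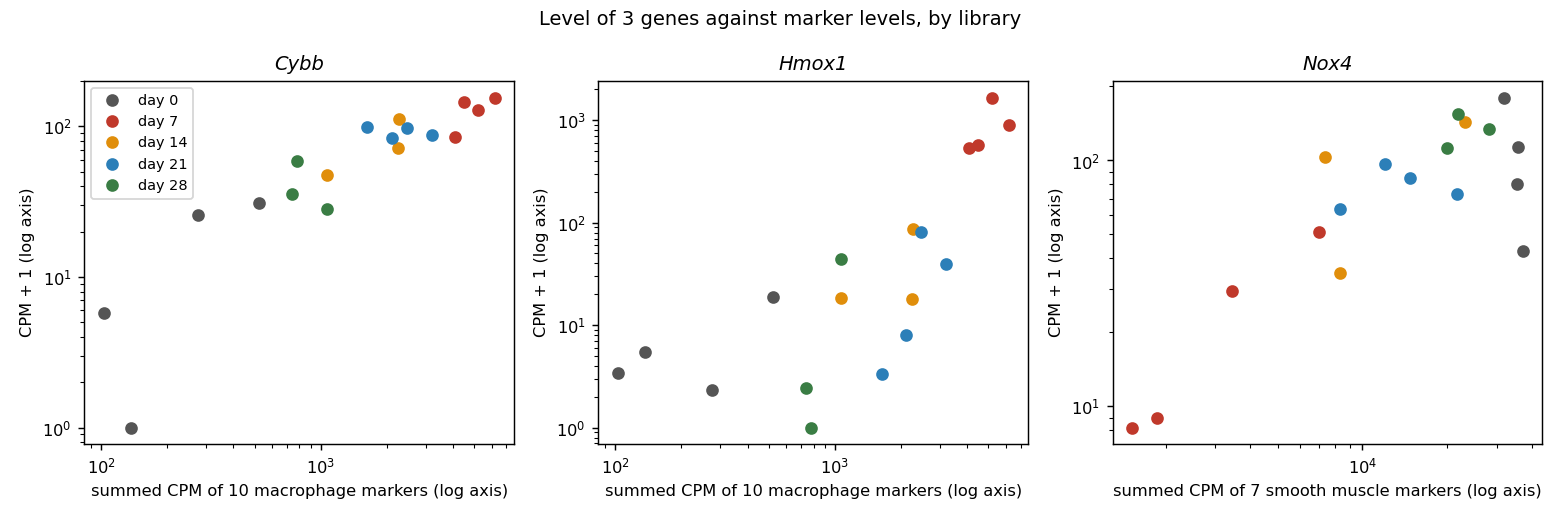
Level of Cybb, Hmox1 and Nox4 per library (y axis, CPM + 1, log axis) against the summed CPM of macrophage or smooth muscle markers (x axis, log axis), coloured by day. Day 7 libraries hold 4081 to 6187 CPM of macrophage markers and form a separate group for Hmox1 (539.5 to 1661 CPM), and the 2 libraries with the least smooth muscle signal (1518 and 1856 CPM) hold the least Nox4, while Nox4 varies from 41.7 to 179.3 CPM among the day 0 libraries at the other end.

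Genes with the most similar pattern were sought among all genes tested by the Pearson correlation of log2 CPM over the 18 libraries. For Cybb these were C1qc (0.945) and C1qb (0.935), subunits of complement C1q made by macrophages, Lamb1 (0.945), a laminin chain, Laptm5 (0.936), a lysosomal membrane protein of blood cells, and Tnc (0.924), the matrix protein tenascin C. Among the remaining 6 genes of the report, Ncf1 was closest to Cybb (0.81), followed by Ncf4 (0.80), Cyba (0.74), Rac2 (0.70) and Hmox1 (0.58), and Nox4 ran against it (-0.48). Their ranks among all genes tested were 73 for Ncf1, 107 for Ncf4, 267 for Cyba, 423 for Rac2 and 1017 for Hmox1. For Hmox1 the most similar genes were Lgmn (0.920), a lysosomal protease, Sec61g (0.919), Eif4a1 (0.918), Adam8 (0.911) and Clec4d (0.911), a lectin of myeloid cells. For Nox4 they were Omd (0.918), Pde3a (0.890), a phosphodiesterase of smooth muscle, Pls3 (0.883), Sspn (0.883) and Rarres2 (0.876), and Hmox1 stood at -0.74. The correlation of Cyba with Hmox1 was 0.79, at rank 111 of the genes tested for likeness to Hmox1.

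Further parts and regulators of the oxidases were taken as a list of 18 genes, of which 11 passed the filter on low counts. At day 7, 5 of the 11 were called, 4 higher and 1 lower, beside 19.8% of all genes, with a median log2 fold change of 1.13, and 3 with only the days compared. The exchange factors Vav1 and Dock2, which load Rac GTPases, rose from 1 and 2 counts over the day 0 libraries to means of 50.3 and 29.8 CPM, ratios of 145.8 (95% exact counting interval 25.6 to 5810) and 44 (11.7 to 371), with edgeR adjusted p of 0.000143 and 0.00193. Hvcn1, the proton channel that compensates the charge moved by the oxidase, rose from 1 count at day 0 to 17.4 CPM (ratio 52.5, 95% exact counting interval 8.90 to 2126, edgeR adjusted p = 0.00438). Arhgdib, which holds Rac GTPases inactive, rose from 29.3 to 188 CPM (log2 fold change 2.66, SE 0.43, edgeR adjusted p = 6.81e-05). Noxo1, an organizer that works with NOX1, fell from 22.0 to 2.65 CPM (log2 fold change -2.96, SE 0.84, edgeR adjusted p = 0.0129).

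Rac1, the widely expressed relative of Rac2, was at 271 ± 24.5 CPM (SD, n = 4) at day 0 and 302 ± 33.7 CPM (SD, n = 4) at day 7 (log2 difference 0.16, SE 0.21, edgeR adjusted p = 0.678). Cybc1, a chaperone of NOX2, was at 30.4 and 43.4 CPM (edgeR adjusted p = 0.472). Nox1, the catalytic subunit of another oxidase, did not pass the filter and had 0 counts in all libraries of days 0 and 7. At later days 3 genes of the list were higher than day 0 at day 14, beside 6.22% of all genes, and 3 at day 21, beside 8.84%. Without day 14 replicate 2 the count at day 14 was 1, and leaving out 1 library at a time gave 0 to 5 at day 21, with 0 without day 21 replicate 1, 1 without day 0 replicate 1 and 5 without day 28 replicate 3. At day 28 edgeR called 0, beside 1.34% of all genes, and DESeq2 called 2, beside 366 of 10312 genes. An unadjusted p under 0.05 was reached by 5, and the share of all genes at that threshold was not counted. Between days 7 and 28, 3 fell and Noxo1 rose, beside 14.4% of all genes called.

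Heme and iron handling was followed in a list of 19 genes, of which 16 passed the filter. At day 7, 5 rose and 1 fell, beside 19.8% of all genes, with a median log2 fold change of 0.51. With only the days compared 3 were called. Ftl1, the ferritin light chain that stores iron, rose from 337 to 2544 CPM (log2 fold change 2.91, SE 0.27, edgeR adjusted p = 9.45e-08). Slc40a1, the iron exporter ferroportin, and Hp, which binds free hemoglobin, had 0 counts at day 0 and were at least 19.7-fold (edgeR adjusted p = 1.75e-05) and at least 17.6-fold (edgeR adjusted p = 0.000393) higher at day 7. Slc11a1, a metal transporter of macrophage phagosomes, rose from 7.07 to 93.2 CPM (log2 fold change 3.65, SE 0.81, edgeR adjusted p = 0.0019). Blvrb, a biliverdin reductase, rose from 39.1 to 87.0 CPM (log2 fold change 1.16, SE 0.37, edgeR adjusted p = 0.0284). Mafk, a small Maf factor that pairs with NRF2 and BACH1, fell from 43.6 to 11.7 CPM (log2 fold change -1.89, SE 0.58, edgeR adjusted p = 0.0208).

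Other genes around heme breakdown were measured without passing the test at day 7. Hmox2, the constitutive heme oxygenase, was at 17.9 ± 14.0 CPM (SD, n = 4) at day 0 and 45.9 ± 10.2 CPM (SD, n = 4) at day 7 (edgeR adjusted p = 0.0725), although all day 7 libraries lay above those of day 0. Blvra, which reduces biliverdin to bilirubin, was at 23.1 and 43.7 CPM (edgeR adjusted p = 0.232). Nfe2l2, which encodes the Hmox1 activator NRF2, was at 62.5 and 63.3 CPM (edgeR adjusted p = 0.978), and Bach1, which encodes its repressor, at 9.03 and 42.6 CPM (edgeR adjusted p = 0.105). Cd163, the receptor for hemoglobin bound to haptoglobin, did not pass the filter and was at 13.9 CPM at day 0 and 2.28 CPM at day 7. Fth1, the ferritin heavy chain, was at 4697 and 4113 CPM (edgeR adjusted p = 0.67), and it was lower than day 0 at day 14 (log2 fold change -0.91, edgeR adjusted p = 0.0434) and at day 21 (log2 fold change -1.41, edgeR adjusted p = 0.000731). Hmox1 and Slc40a1 both fell between days 7 and 28, Slc40a1 from 81.3 to 5.16 CPM (edgeR adjusted p = 0.00486), and Ftl1 fell from 2544 to 512 CPM (edgeR adjusted p = 2.34e-05).

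Of 10 genes that remove superoxide and peroxide, all of which passed the filter, 4 were called at day 7, beside 19.8% of all genes, with a median log2 fold change of 0.21. Txnrd1, thioredoxin reductase, rose from 50.1 to 172 CPM (edgeR adjusted p = 0.00164), Prdx1, a peroxiredoxin, from 435 to 1250 CPM (edgeR adjusted p = 0.000198), and Gclm, a subunit of the first enzyme of glutathione synthesis, from 33.5 to 89.2 CPM (edgeR adjusted p = 0.0241). Sod3, the extracellular superoxide dismutase of the vessel wall, fell from 1580 to 432 CPM (log2 fold change -1.87, SE 0.42, edgeR adjusted p = 0.00202). At day 21 Sod1 was the 1 gene called, lower than day 0 (log2 fold change -0.76, edgeR adjusted p = 0.0306), beside 8.84% of all genes. No gene of the list was called at day 21 without day 0 replicate 2, day 0 replicate 3, day 21 replicate 1 or day 21 replicate 4, and up to 3 were called without another library. At days 14 and 28 edgeR and DESeq2 called 0 genes of the list, and 0 had an unadjusted p under 0.05.

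**Figure D4:**
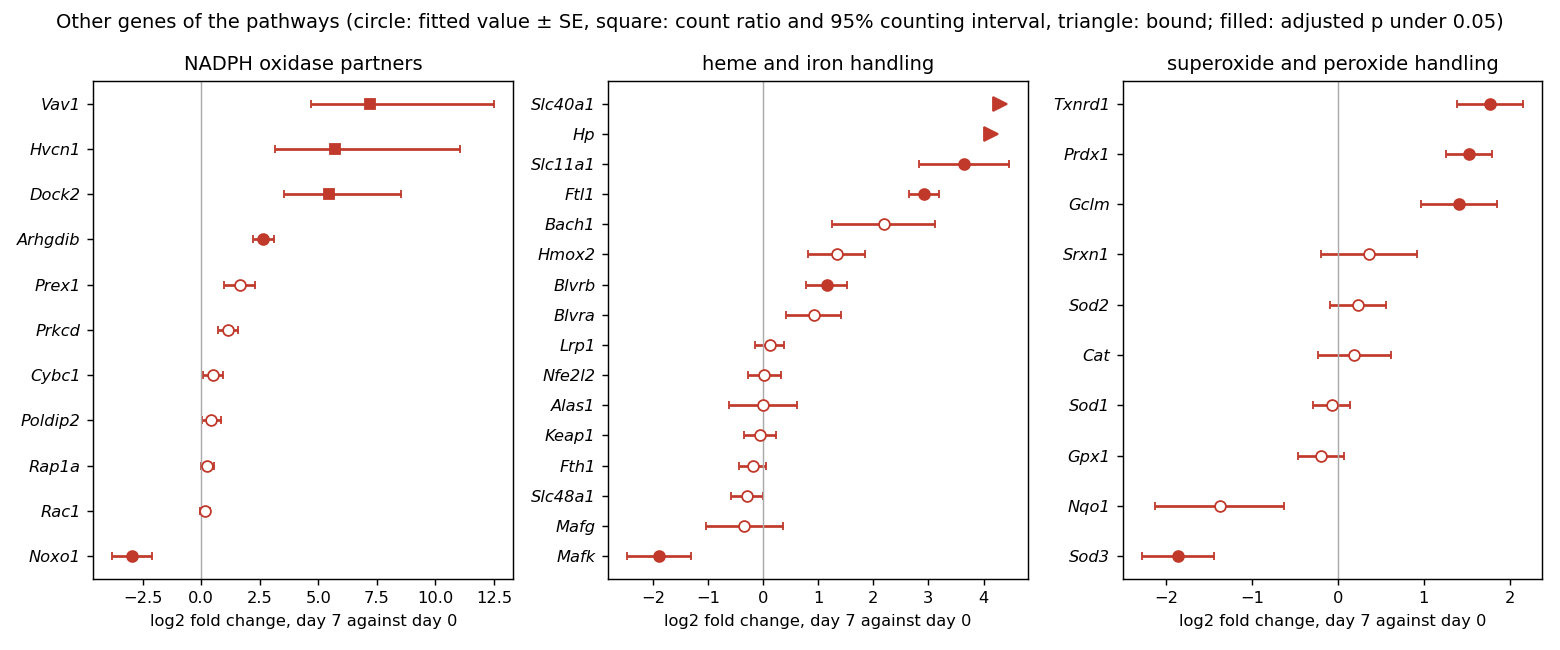
Log2 fold change of day 7 against day 0 (x axis, own scale per panel) for the genes tested in 3 lists (rows). Circles give the fitted value ± SE, squares count ratios with 95% counting intervals, triangles bounds for genes at 0 counts at day 0, and filled symbols an adjusted p under 0.05, of which there are 5 of 11, 6 of 16 and 4 of 10.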

How the data were processed

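Laser-dissected carotid tissue of 18 libraries was measured by MACE-seq. The authors collapsed PCR duplicates with molecular identifiers, cropped the reads and quantified them with Salmon 1.9.0 on the mm39 transcriptome. The authors deposited whole-number estimated counts (expected counts) of each gene and a normalised signal from DESeq2 1.36.0. The annotation release and the use of strand are not given in the sources used here. The day in the labels set each library's group.

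The deposited counts were analysed with edgeR 4.0.16 in R 4.3.3 (filterByExpr by day, TMM, quasi-likelihood test). All 18 libraries entered 1 fit, p-values were adjusted by Benjamini-Hochberg across the 10312 genes tested, and calls required an adjusted p under 0.05. Log2 CPM, used for correlations, had a prior count of 2. Log2 fold changes came from the edgeR fit with its default setting. Where a group had 0 counts, folds are bounds against 3 counts per library. With 1 to 3 counts, exact 95% intervals cover counting error only. No 2 libraries were identical.

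Alternatives were DESeq2 1.42.0, limma 3.58.1 (voom, or the deposited normalised signal with a pseudocount of 1), other scalings and filters, only the days compared, a replicate block, a block for label numbers and each library left out. Steps were tested on simulated data. Libraries of the same replicate number had a median residual correlation of -0.006 over 33 pairs (range -0.132 to 0.205). These values show no pattern shared by the pairs and cannot exclude pairing. Of the numbers in the labels, 3 occur at both day 0 and day 21 (residual correlation -0.0067 to 0.055). The right carotid served as control in the study, and whether day 0 vessels came from injured mice is not stated.

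The members and lists were chosen with earlier results of these data known. The named genes are all members, the called genes of each list with the largest changes at day 7, listed enzymes, subunits and receptors, and the 5 genes most like Cybb, Hmox1 and Nox4. The search for GGAA, and the naming of Cybc1, Hvcn1, Noxo1, Mafk and Sod1, were chosen after their values were seen. Promoters came from RefSeq. The results of 2 listed genes are not reported here, and they were left out of their lists.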

Additional observations from a re-analysis of the deposited data

Results flagged for a closer look

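No library stood apart in the levels of the 7 genes in 19 groups of 4 libraries tested by Dixon's criterion. The changes from day 0 at a later day differed from that at day 7 in 11 cases, by the edgeR contrast between both days (log2 differences, later day minus day 7, adjusted p in the report). At day 14 this was Hmox1 (-4.54). At day 21 these were Hmox1 (-4.83), Cyba (-1.06) and Nox4 (1.72). At day 28 these were Cybb (-1.67), Cyba (-1.61), Ncf1 (-3.51), Ncf4 (-3.16), Rac2 (-4.03), Nox4 (2.47) and Hmox1 (-5.95). These contrasts share the day 7 libraries, and the level of day 0 drops out of them.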

How the results depend on the processing

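At day 7 against day 0 the calls of the 7 genes held under every alternative in which the gene was tested. Rac2 did not pass the filter with only the days compared. Over all members and comparisons, 1675 gene-level alternatives kept direction and side of the threshold, 35 lost a call, 19 gained one and 12 changed the sign of a value that was not called. The cause was not tested. Signs turned for Hmox1 at day 28 against day 0 with limma-voom (-0.16 without and -0.19 with a block for label numbers) and the deposited normalised values (-0.012), and on leaving out libraries (-2.75 to 2.39). On leaving out libraries they also turned for Nox4 at day 14 (-0.61 to 0.24) and day 21 (-0.65 to 0.014), for Cyba (-0.0063 to 0.28) and Ncf1 (-0.46 to 1.505) at day 28, and for Ncf1 at day 14 against day 7 (-0.57 to 0.0082).

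With only the days compared, counts of called genes became 3 members, 1 oxidase partner (day 14), 1 member, 1 partner and 3 superoxide genes (day 21), and 3 partners and 3 heme genes (day 7), all against day 0. DESeq2 gave 2 superoxide genes at day 21, and 1 member, 2 partners and 2 heme genes at day 28. Of all 10312 genes it called 1276 at day 21 and 366 at day 28. Without a filter there were 1 superoxide gene at day 14, 5 members and 5 partners at day 21, and 1 member, 2 partners, 2 heme genes and 1 superoxide gene at day 28. Library totals, both voom fits and the deposited values gave 2 superoxide genes at day 21, and library totals, a minimum of 10 counts in 3 libraries and the deposited values gave 1 heme gene at day 28. At day 14 against day 7, DESeq2, no filter and the replicate block each gave 2 members. Apart from that count and the loss of Cybb at day 28 against day 7, the replicate block changed no member's call.

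Leaving out 1 library at a time gave, against day 0, 2 to 5 members, 1 to 3 partners and 1 to 4 heme genes at day 14, 0 to 5 partners and 0 to 3 superoxide genes at day 21, and 0 to 1 members, partners and heme genes at day 28. It gave 0 to 2 members at day 14 and 4 to 7 at day 28 against day 7, and 0 to 1 at day 28 against day 21. Hmox1 at days 14 and 21 against day 0 was called only without the filter on low counts (adjusted p = 3.45e-08 and 7.73e-07). Ncf1 at day 21 against day 0 was called in 6 settings, among them DESeq2 (adjusted p = 0.0163). Outside day 7, libraries often held fewer than 10 counts of the cytosolic subunits or Hmox1. Hmox1 held 11 to 49 counts at day 14 and 1 to 49 at day 21. The part of depth in the missed calls was not tested.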
